A study of Mus musculus with 24 samples.

Results

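Olaparib given without radiation was compared with sham treatment in mouse tumours grown from 2 versions of 1 carcinoma line. The tumours were chosen by the letters of their coded identifiers, O or EO for olaparib alone and S or ES for sham, which gave 6 against 6 and 12 of the 24 tumours of the series. SCC7 is a mouse squamous cell carcinoma line, and about 1000000 cells were injected under the skin of female C3H mice aged 6-8 weeks. Vector tumours came from SCC7 cells with an empty vector, and miR-21 tumours came from SCC7 cells that overexpress miR-21-5p. The 4 groups of 3 tumours were vector sham (S-758, S-759, S-761), vector olaparib (O-722, O-723, O-724), miR-21 sham (ES-706, ES-709, ES-741) and miR-21 olaparib (EO-701, EO-703, EO-762). Treatment began at a volume of about 300 cubic mm, and olaparib was injected into the abdomen at 50 mg/kg on a schedule tied to the irradiation days of the other arms. How that schedule was kept in unirradiated mice, what sham treatment contained, and how long after the last dose tumours were taken are not given in the sources used here. Each value is for 1 whole tumour with its host cells, each version of the line is 1 cell population, and p-values measure only the spread between these tumours.

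The coded identifiers and the written labels of the same tumours named different groups. The code letters were used throughout because they define this comparison. Of the 12 tumours, the written label named the same group for 2 (ES-706 and EO-762) and another for 10. It gave another olaparib status for 9, the other cell line for 5, and radiation for 4. Cdkn1a, the p21 cell cycle inhibitor that p53 switches on after radiation, ran from 171 to 345 unscaled CPM (counts relative to library total) in the 12 tumours coded as unirradiated and from 370 to 777 in the 12 coded as irradiated. The 4 that the written label calls irradiated stood at 229 to 287. That level bears on radiation only, and the olaparib status of a tumour was not checked by any gene. With groups taken from the written label, edgeR's quasi-likelihood test also called 0 genes for olaparib against sham over both cell lines, with 299 at an unadjusted p below 0.05. That grouping held partly other tumours. It took in IO-728, EIO-749, EI-752 and EI-742, coded as irradiated, and left out S-759, O-724, EO-701 and EO-703. Its sham arm held O-722, O-723, IO-728 and EIO-749, coded as olaparib. Its olaparib arm held S-761, ES-709, ES-741, EI-752 and EI-742, coded without olaparib. The arms were thus mostly exchanged. Under that grouping 82 of the 103 genes named here took the opposite sign, which is no independent check. Every direction below holds for the coded groups only.

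Total counts per tumour ran from 37727884 to 39166017, and 15018 of 27368 genes had enough counts to be tested over both cell lines. Below, CPM values are scaled by the TMM method within the 12 tumours. Vector sham tumour S-761 stood apart, with 34145 CPM summed over 20 ribosomal protein genes against 16422 to 22327 in the other 11. Vector olaparib tumour O-723 had the lowest sum over 34 DNA replication genes, 1908 CPM against 2499 to 3612. Skeletal muscle genes summed to 2099 CPM in O-724 and 1723 in ES-741, against 142 to 809 in the others. Of the squamous basal markers, the keratins Krt5 and Krt14 were under 5 CPM in all tumours but S-761 and ES-741, and Trp63, the squamous lineage factor, ran from 0.0758 to 1.17 CPM. The basal integrin genes Itga6 and Itgb4 were present in every tumour, at 99.0 to 169 and 199.8 to 323 CPM. In bulk tumours, fewer cells of a type and less RNA per cell cannot be told apart.

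Olaparib inhibits PARP1 and PARP2, enzymes that bind broken DNA and build chains of ADP-ribose that call in repair factors. The drug blocks this synthesis and traps the enzymes on DNA, so that unrepaired breaks meet replication forks. Such breaks are repaired mainly by homologous recombination, which is why cells without BRCA1 or BRCA2 are sensitive, and PARP1 also serves alternative end joining with DNA polymerase theta (Polq) and DNA ligase III (Lig3).

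The microRNA that distinguishes the cell versions is shown because the results are also split by it. Its mature sequence is from RefSeq on GRCm38.p6, chr11:86584120-86584141, minus strand, 22 bases, within the span of the gene Vmp1. Capitals mark the seed, bases 2 to 8, which pairs with target transcripts.
mmu-miR-21a-5p: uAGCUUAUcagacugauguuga
The mature microRNA is not among the features of the count table used here. Its host gene Vmp1 had 247 ± 43.8 CPM in sham and 254 ± 31.5 in olaparib tumours (mean ± SD, n = 6 each, as for all such values below), and the log2 fold change of olaparib over sham was 0.05 ± 0.12 (± SE, as below).

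No gene passed the test of olaparib against sham over both cell lines. With edgeR's quasi-likelihood test, cell line as covariate and Benjamini-Hochberg adjustment, 0 of 15018 genes (0%) had an adjusted p below 0.05, and the lowest adjusted p was 0.907. At an unadjusted p below 0.05 there were 488 genes (3.25%), of which 283 (1.88%) were higher and 205 (1.37%) lower under olaparib. DESeq2 and limma voom also called 0 genes, with 606 and 614 at an unadjusted p below 0.05. The median standard error was 0.15 on the log2 scale. The unadjusted 95% interval lay inside a 2-fold difference either way for 12213 genes (81.3%) and inside a 1.5-fold difference for 9508 (63.3%). These intervals bound the size of a difference and do not set the smallest one that 6 against 6 tumours could detect. Differences within a gene's interval are not excluded, so 0 calls do not show that there was no difference. Because the intervals are unadjusted, a gene whose interval leaves out 0 may still not pass the adjusted test over 15018 genes. All genes named below are given as values that did not pass the adjusted test.

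Transcripts of the drug's targets were close to the sham level. Parp1 (chromosome 1, 180568891 to 180600999; positions here and below are RefSeq GRCm38.p6) stood at 143, 124 and 136 CPM in vector sham and 137, 123 and 128 in miR-21 sham tumours. Under olaparib it stood at 141, 70.7 and 119 in vector and 129, 133 and 125 in miR-21 tumours. O-723 was far below the rest, and the other tumours overlapped. The log2 fold change of Parp1 was -0.14 ± 0.14, with an interval of -0.44 to 0.15. Parp2 (chromosome 14, 50807897 to 50821301) had 25.2 ± 4.99 CPM in sham and 24.5 ± 0.916 in olaparib tumours, a log2 fold change of -0.03 ± 0.11 with an interval of -0.27 to 0.21. Every olaparib tumour lay within the sham range for Parp2. Parp3, which modifies proteins at double-strand breaks, had a log2 fold change of 0.03 ± 0.15. Hpf1, the cofactor that directs PARP1 and PARP2 to serine, was at -0.07 ± 0.13, and Parg, the hydrolase that cuts the chains, at 0.09 ± 0.09.

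Over the 16 members of the PARP family, 14 had a log2 fold change above 0, where 52.7% of all tested genes did, and 0 reached an unadjusted p below 0.05. The median of the family was 0.18, beside 0.01 for all tested genes, and it was 0.11 without S-761. Parp9, an interferon-induced member, had 88.2 ± 23.8 CPM in sham and 112 ± 25.4 in olaparib tumours, and 1 of 6 olaparib tumours lay above the sham range (log2 fold change 0.35 ± 0.18). Parp4, a part of the vault particle, was at 0.26 ± 0.14. Among 19 genes of ADP-ribose removal and NAD supply, 0 reached that p and the median was -0.07. Macrod2, which removes the last ADP-ribose from proteins, was the lowest-p member, with 4.8 ± 0.757 CPM in sham and 3.80 ± 0.866 in olaparib tumours. Its log2 fold change was -0.34 ± 0.16, and 4 of 6 olaparib tumours lay below the sham range.

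**Figure D1:**
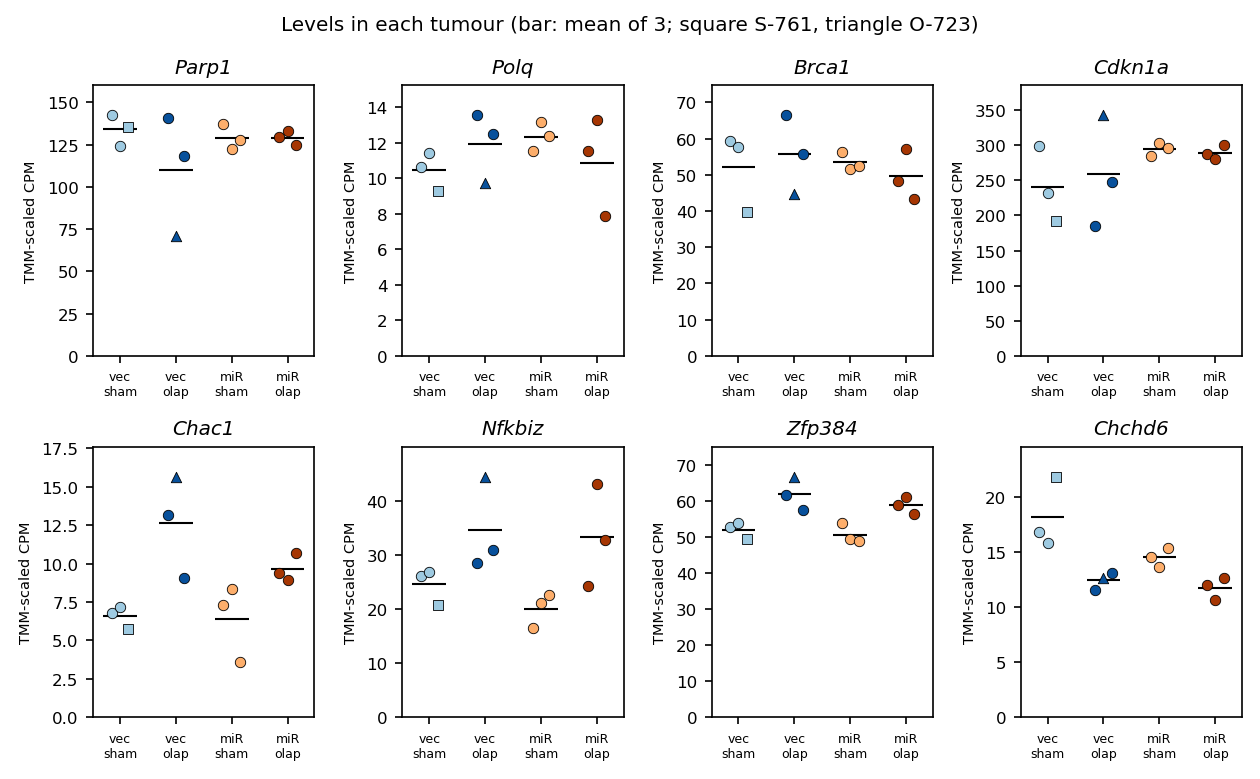
TMM-scaled CPM of 8 genes in each of the 12 tumours by group (vec, vector; miR, miR-21; olap, olaparib); points are tumours, bars are means of 3, the square is S-761 and the triangle O-723. Chac1, Zfp384 and Chchd6 do not overlap between the 6 sham and 6 olaparib tumours, while Parp1, Polq, Brca1, Cdkn1a and Nfkbiz do. Chac1, Zfp384, Chchd6 and Nfkbiz were picked for a small p in these same values.

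Repair genes that work with or around PARP1 were also close to sham. In single-strand break and base excision repair, 0 of 21 members reached an unadjusted p below 0.05, and the median log2 fold change was -0.11. Xrcc1, the scaffold that PARP1 brings to nicks, was at -0.10 ± 0.10, and its ligase partner Lig3 at 0.07 ± 0.12. Lig3 ran from 46.4 to 55.4 CPM in olaparib tumours and from 48.8 to 54.0 in 5 sham tumours, with S-761 alone at 31.3. In alternative end joining, 0 of 19 members reached that p, and 7 were above 0. Polq (chromosome 16, 37011741 to 37095419), the polymerase that joins ends at short repeats, stood at 10.6, 11.4 and 9.27 CPM in vector sham, 11.5, 13.2 and 12.3 in miR-21 sham, 13.5, 9.70 and 12.5 in vector olaparib and 11.5, 13.3 and 7.85 in miR-21 olaparib tumours. These overlapped between arms, and the log2 fold change was 0.00 ± 0.15 with an interval of -0.31 to 0.32. Classical end joining had 0 of 18 members at that p and a median of -0.02.

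Homologous recombination had 0 of 25 members at an unadjusted p below 0.05 and a median of -0.05. Brca1, which starts and loads the repair machinery, had 52.9 ± 7.13 CPM in sham and 52.7 ± 8.84 in olaparib tumours, a log2 fold change of -0.01 ± 0.13 with an interval of -0.28 to 0.26. Brca2, which acts later in the same route, was at -0.04 ± 0.12. Trp53bp1 and Shld1, which hold back end resection and whose loss is known to give PARP inhibitor resistance, were at 0.04 ± 0.13 and -0.04 ± 0.16. In the Fanconi anaemia pathway, 1 of 15 members was lower at that p, the ubiquitin-conjugating enzyme Ube2t, at -0.27 ± 0.10. The 3 miR-21 olaparib tumours, at 10.9 to 12.4 CPM, lay below every sham tumour for Ube2t, and the 3 vector olaparib tumours did not.

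**Figure D2:**
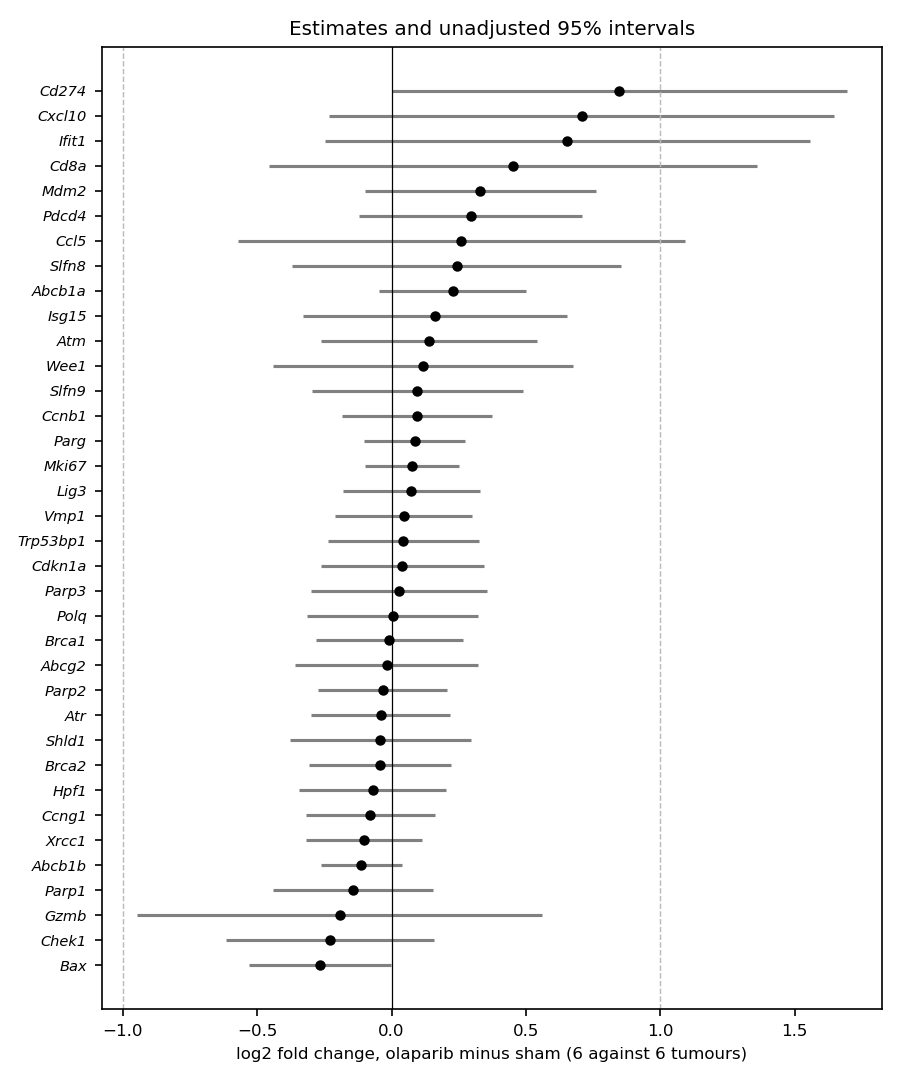
Log2 fold change of olaparib over sham (points) with unadjusted 95% intervals (lines) for 36 genes of ADP-ribose metabolism, repair, checkpoints, p53, efflux, immunity and proliferation, 6 tumours in each arm; dashed lines mark a 2-fold difference. The intervals of Bax and Cd274 end just short of 0 and the other 34 cross it.

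Checkpoint genes gave no call. In the ATM and ATR list, 0 of 15 tested members were higher and 1 lower at an unadjusted p below 0.05. The damage kinases Atm and Atr were at 0.14 ± 0.19 and -0.04 ± 0.12. Chek1, the kinase that slows replication, was at -0.23 ± 0.18: 4 of 6 olaparib tumours lay below the sham range, while O-722, at 24.3 CPM, was the highest of all 12. Tipin, which protects replication forks, was the member that was lower, at -0.31 ± 0.14, with 5 of 6 olaparib tumours below the sham range. Wee1, which holds cells before mitosis, stood at 95.2 CPM in O-723 and at 25.7 to 48.5 in the other 11. The Schlafen genes Slfn8 and Slfn9, similar neighbours whose reads may be shared, were at 0.24 ± 0.28 and 0.10 ± 0.18.

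Targets of p53 showed no common direction. Of 37 members, 2 were higher and 3 lower at an unadjusted p below 0.05, beside 1.88% and 1.37% of all tested genes. The median was 0.02, with 20 members above 0 and 17 below. Without O-723, 13 were above 0 and 24 below, with 1 higher and 4 lower at that p. Without S-761 and O-723, 11 were above 0 and 26 below, with 1 higher and 5 lower at that p and a median of -0.09. Cdkn1a (chromosome 17, 29090979 to 29100722) stood at 299, 232 and 192 CPM in vector sham, 284, 303 and 296 in miR-21 sham, 186, 343 and 248 in vector olaparib and 287, 281 and 301 in miR-21 olaparib tumours. Vector tumours spread widely in both arms and miR-21 tumours hardly at all, and the log2 fold change was 0.04 ± 0.14 with an interval of -0.26 to 0.34. Mdm2, the ligase that degrades p53, was at 0.33 ± 0.20. O-723 had 328 CPM of Mdm2 against 169 to 197 in the other olaparib tumours, and S-761 had 92.2 against 164 to 195 in the other sham tumours. Ccng1, a cyclin-like p53 target, was at -0.08 ± 0.11.

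Pmaip1 (NOXA), a trigger of apoptosis, had 2.67 ± 0.675 CPM in sham and 4.30 ± 1.34 in olaparib tumours, and 4 of 6 olaparib tumours lay above the sham range. Its log2 fold change was 0.69 ± 0.24 (unadjusted p = 0.013), and that of the secreted stress factor Gdf15, near 1 CPM, was 1.06 ± 0.46. Bax, which opens the mitochondrial outer membrane, was at -0.27 ± 0.12 over both lines, -0.48 ± 0.15 in vector and -0.05 ± 0.15 in miR-21 tumours. Fdxr, a mitochondrial reductase, was at -0.24 ± 0.10. Among 23 tested apoptosis regulators, Pmaip1 was higher and Bax lower at an unadjusted p below 0.05, and 13 were above 0.

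No replication or mitosis gene passed the test. Of 34 DNA replication genes, 2 had a log2 fold change above 0 and 2 were lower at an unadjusted p below 0.05, beside 52.7% and 1.37% of all tested genes, with a median of -0.16. Gins2, a part of the replicative helicase, had 31.0 ± 7.00 CPM in sham and 23.7 ± 2.82 in olaparib tumours, a log2 fold change of -0.38 ± 0.14. Tyms, which makes thymidylate, was at -0.41 ± 0.18, with 3 of 6 olaparib tumours below the sham range. The low sum in O-723 touched this list: without that tumour its median was -0.05 and 8 members were above 0. Over 34 mitosis genes the median was -0.02, with 16 above 0. Mki67, the proliferation antigen, had 410.2 ± 30.2 CPM in sham and 432 ± 27.5 in olaparib tumours, a log2 fold change of 0.08 ± 0.08. Ccnb1, the mitotic cyclin, was at 0.09 ± 0.13.

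Among the 10 genes with the smallest p in the higher direction were genes known from stress and inflammation. Nfkbiz (chromosome 16, 55811375 to 55838954), a nuclear regulator of NF-kB targets, stood at 26.0, 26.9 and 20.7 CPM in vector sham and 16.4, 21.1 and 22.5 in miR-21 sham tumours. Under olaparib it stood at 28.5, 44.4 and 30.9 in vector and 24.3, 43.1 and 32.7 in miR-21 tumours. All olaparib tumours but EO-701 were above every sham tumour. The log2 fold change was 0.62 ± 0.16 (edgeR, unadjusted p = 0.00191, adjusted p = 0.907).

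Chac1 (chromosome 2, 119351242 to 119354326), which degrades glutathione and is a target of the stress factor ATF4, did not overlap between the arms. Sham tumours had 6.82, 7.18 and 5.75 CPM in vector and 7.32, 8.38 and 3.58 in miR-21, and olaparib tumours had 13.2, 15.7 and 9.05 and 9.39, 8.94 and 10.7. All 6 olaparib tumours lay above all 6 sham tumours, as for 8 of 15018 genes (0.0533%). Some genes separate in this way without any effect. Chac1, Zfp384 and Chchd6 were picked for a small p in the same values, so their separation adds no support. The log2 fold change was 0.77 ± 0.20 (edgeR, unadjusted p = 0.0025, adjusted p = 0.907), 0.94 ± 0.29 in vector and 0.59 ± 0.29 in miR-21 tumours. Among other genes of the same stress response, the pseudokinase Trib3 was at 0.47 ± 0.19 with 2 of 6 above the sham range, and the cystine importer Slc7a11 at 0.95 ± 0.38 with 3 of 6. Ddit3 (CHOP), Asns and Atf4, chosen after their values were seen, were at 0.54 ± 0.28, 0.06 ± 0.18 and 0.17 ± 0.15. The heat shock and unfolded protein list had 5 of 17 members higher and 0 lower at an unadjusted p below 0.05, beside 1.88% and 1.37% of all tested genes, with a median of 0.17. Without O-723 or without ES-741, 1 member was at that p. Hspa1a, a heat shock chaperone whose reads may be shared with its near-identical copy, was at 34.3 CPM in EO-762, 21.5 in O-723 and 8.21 in EO-701, and at 0.95 to 6.00 in the other 9.

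Zfp384 (chromosome 6, 125009017 to 125037870), a zinc finger transcription factor, also did not overlap. It had 52.8, 53.8 and 49.5 CPM in vector sham, 53.9, 49.4 and 48.8 in miR-21 sham, 61.6, 66.8 and 57.6 in vector olaparib and 58.9, 61.3 and 56.3 in miR-21 olaparib tumours. The difference was small and alike in both lines, 0.25 ± 0.10 in vector and 0.22 ± 0.10 in miR-21 tumours on the log2 scale. Zc3h7a, an RNA-binding protein, was at 0.28 ± 0.08, and Gpr137b, a lysosomal membrane protein, at 0.36 ± 0.10 with 5 of 6 above the sham range. The matrix protease Mmp3 was at 1.30 ± 0.37, and Ccn1, a matrix-associated signal protein, at 1.03 ± 0.29 with its highest level, 141 CPM, in O-723. The rest of the 10 were the long RNA Mir100hg at 0.38 ± 0.10, Gpr179 at 1.44 ± 0.39 and Tafa3 at 1.09 ± 0.30.

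In the lower direction, Chchd6 (chromosome 6, 89383146 to 89595652), a subunit of the complex that shapes the inner mitochondrial membrane, had the smallest p of the named genes. Sham tumours had 16.8, 15.8 and 21.9 CPM in vector and 14.6, 13.7 and 15.4 in miR-21, and olaparib tumours had 11.6, 12.7 and 13.1 and 12.1, 10.7 and 12.6. All 6 olaparib tumours lay below all 6 sham tumours, again as for 8 genes (0.0533%), with the same limit as for Chac1. The log2 fold change was -0.43 ± 0.11 (edgeR, unadjusted p = 0.00189, adjusted p = 0.907). Apoo (chromosome X, 94367010 to 94417093), another subunit of that complex, was at -0.39 ± 0.11 with 4 of 6 olaparib tumours below the sham range. Snai1, a repressor of epithelial genes, was at -0.50 ± 0.16 with 3 of 6 below it.

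Of the 10 lower genes, 6 are keratinocyte or desmosome genes that were high in 2 sham tumours. Krt10, a keratin of differentiated epidermis, was at 72.3 CPM in S-761 and 22.7 in ES-741, against 1.01 to 5.60 in the other 10. Krt14, a basal keratin, was at 40.7 and 9.98 in the same tumours and at most 4.53 elsewhere. The desmosome gene Dsp and the epidermal genes Krt1, Dmkn and Lgals7 were also highest in S-761 and ES-741. Krt1 and Krt5 were listed at 0 in all 3 miR-21 olaparib tumours and in ES-709. Keratinocyte differentiation genes had 5 of 9 tested members lower at an unadjusted p below 0.05, with a median of -2.71, and squamous basal genes had 7 of 13, with a median of -1.20. Of all tested genes 1.37% were lower at that p. Without S-761, 0 members of either list were at that p, and the medians were -1.52 and -0.86. The integrin genes Itga6 and Itgb4 were at -0.06 ± 0.10 and -0.15 ± 0.14.

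Red cell genes followed sham tumours S-758, S-761 and ES-741. Hbb-bt, a beta globin with a near-identical neighbour, had 54.5, 8.14 and 83.0 CPM in vector sham and 7.35, 6.97 and 66.1 in miR-21 sham tumours, against 2.52, 7.65 and 5.33 and 7.14, 3.38 and 17.9 under olaparib. The 3 high values were all sham, and the other 3 sham tumours lay inside the olaparib range. Alas2, the first enzyme of heme synthesis in red cells, was highest in the same 3 tumours, at 11.9, 27.3 and 18.1 CPM. Of 5 tested erythroid genes, 4 were lower at an unadjusted p below 0.05, where 1.37% of all tested genes were, and without ES-741 0 were.

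No inflammation gene passed the test, and the counts in these lists moved with single tumours. In the NF-kB list, 17 of 20 tested members were above 0 and 4 were higher at an unadjusted p below 0.05, beside 52.7% and 1.88% of all tested genes. That 4 became 1 without EO-703, and 2 without S-761 or without O-723. The cytokine Tnf had 1.95 ± 0.707 CPM in sham and 3.49 ± 1.44 in olaparib tumours, with 5 of 6 above the sham range (log2 fold change 0.86 ± 0.34). Tnfaip3, the feedback inhibitor A20, was at 0.68 ± 0.28. Of 28 tested chemokine genes 2 were higher at that p, the neighbours Ccl3 and Ccl4, which attract monocytes and T cells, at 1.13 ± 0.34 and 0.85 ± 0.32. The chemokine median was 0.12 with 17 above 0, and without EO-703 it was -0.11 with 11 above 0. Nos2, the nitric oxide synthase of activated macrophages, was at 62.9 CPM in O-723 and 60.3 in EO-703, against 4.83 to 31.2 in the other 10. Over 21 macrophage and monocyte genes, 15 were below 0 and the median was -0.21, and it was -0.02 without S-761.

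Immediate early genes, which respond within minutes to growth factors and stress, were above 0 for all 17 members, and 7 were higher at an unadjusted p below 0.05, beside 52.7% and 1.88% of all tested genes. Egr1, a transcription factor of this class, stood at 60.1, 68.1 and 25.9 CPM in vector sham and 16.1, 19.4 and 24.4 in miR-21 sham tumours. Under olaparib it stood at 40.0, 85.3 and 59.2 in vector and 39.8, 101 and 62.5 in miR-21 tumours. The arms did not overlap in miR-21 tumours and overlapped in vector tumours. The log2 fold change of Egr1 was 1.76 ± 0.41 in miR-21 and 0.26 ± 0.40 in vector tumours, and that of Fos, an AP-1 subunit, was 1.68 ± 0.39 and 0.23 ± 0.38. Egr2 was at 0.68 ± 0.22 over both lines, with 5 of 6 olaparib tumours above the sham range. Fosb, named after its values were seen, was at 1.52 ± 0.61. With each tumour left out in turn, 3 (without ES-709 or ES-706) to 9 (without S-759) were at that p. Without S-761 and O-723, 3 of the 17 were at that p and 14 were above 0.

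Interferon genes, which DNA damage can switch on through the cGAS and STING sensors, varied widely within both arms. Of 33 tested type I interferon genes, 26 were above 0, beside 52.7% of all tested genes, 0 were higher and 1 was lower at an unadjusted p below 0.05. Their summed level ran from 1532 to 4500.1 CPM in sham and from 1919 to 4612 in olaparib tumours. Isg15, a ubiquitin-like protein, was at 0.16 ± 0.23 and the antiviral gene Ifit1 at 0.65 ± 0.42. O-723 had 332 CPM of Ifit1 against 38.5 to 102 in the other olaparib tumours, and 265 CPM of the antiviral enzyme Rsad2 against 23.6 to 47.0. Ifi27l2a was the member that was lower, at -0.44 ± 0.18. The median of the list was 0.26 with all tumours, 0.06 without S-761 and O-723, and 0.10 without EO-703. Without S-759 it was 0.41, with 4 members higher at an unadjusted p below 0.05. Over 13 tested genes of DNA sensing the median was 0.13, with 0 at that p, and without EO-703 it was 0.01.

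Cd274, which encodes the checkpoint ligand PD-L1, stood at 23.5, 59.6 and 29.5 CPM in vector sham, 15.1, 26.4 and 14.1 in miR-21 sham, 34.1, 56.7 and 46.6 in vector olaparib and 25.7, 97.5 and 24.5 in miR-21 olaparib tumours. EO-703 was the highest and the other 5 olaparib tumours lay within the sham range. The log2 fold change was 0.85 ± 0.39 with an interval of 0.00 to 1.69, and Cd274 was the 1 of 33 interferon gamma and antigen presentation genes at an unadjusted p below 0.05. EO-703 also led for Cxcl10, an interferon-induced chemokine for T cells, at 192 CPM against 21.3 to 100.1 (log2 fold change 0.71 ± 0.43).

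All 19 T cell markers were above 0, and 2 were higher at an unadjusted p below 0.05, beside 52.7% and 1.88% of all tested genes. These 2 were the costimulatory receptors Cd28 at 0.94 ± 0.34 and Icos at 1.08 ± 0.45. The median was 0.37 over both lines, -0.26 in vector and 1.09 in miR-21 tumours. The summed level ran from 90.1 to 472 CPM in sham and from 188 to 516 in olaparib tumours, highest in EO-703. Without EO-703, 15 markers were above 0 and 0 were at that p. The cytotoxic marker Cd8a was at 0.45 ± 0.42, the T cell chemokine Ccl5 at 0.26 ± 0.38 and the killer cell protease Gzmb at -0.19 ± 0.35.

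Drug efflux is of note for olaparib because P-glycoprotein exports it. Abcb1a, one of the mouse genes for that pump, stood at 16.7, 17.5 and 16.7 CPM in vector sham, 13.1, 15.1 and 9.37 in miR-21 sham, 15.1, 19.7 and 21.4 in vector olaparib and 15.8, 15.3 and 15.7 in miR-21 olaparib tumours. O-723 and O-724 lay above the sham range and the other olaparib tumours within it, and the log2 fold change was 0.23 ± 0.13. Abcb1b, the other gene for the pump, was at -0.11 ± 0.07 and Abcg2 at -0.02 ± 0.16. Of 14 tested efflux and metabolism genes, the exporter Abcc5 was higher at an unadjusted p below 0.05, at 0.27 ± 0.09, and the quinone reductase Nqo1 was lower, at -0.26 ± 0.10.

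Stromal genes were high in single groups or single tumours. Acta2, smooth muscle actin, was at 27.8 to 38.8 CPM in the 6 sham tumours, at 30.0 to 42.5 in vector olaparib and at 56.1 to 61.7 in miR-21 olaparib tumours. The 3 miR-21 olaparib tumours lay above all others, and the log2 fold change was 0.85 ± 0.16 in miR-21 and 0.12 ± 0.16 in vector tumours. Postn, a matrix protein of fibroblasts, was at 0.88 ± 0.32. Of 20 fibroblast genes 17 were above 0 and 2 were higher at an unadjusted p below 0.05, beside 52.7% and 1.88% of all tested genes. Without S-761, 13 were above 0. The 2 became 0 without EO-703 and 7 without EO-701. Plin1, the coat of fat droplets, had 14.7 CPM in O-724 and 5.68 in EO-703, against 0.00 to 1.43 in the other 10. Of 11 tested adipocyte genes 2 were higher at that p, and without O-724 or without EO-703 0 were. Without ES-741 it was 8 of 11, and without EO-701 or without EO-762 it was 5 of 12. Of 32 tested known targets of miR-21-5p, 24 were above 0 and 3 were higher at that p. Without S-761, 19 were above 0 and 1 was at that p, and the median went from 0.13 to 0.06. Pdcd4, a classic target, was at 0.29 ± 0.19.

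No gene of protein synthesis or respiration passed the test. All 20 cytosolic ribosomal protein genes and all 20 oxidative phosphorylation genes had a log2 fold change below 0, with 0 at an unadjusted p below 0.05. Of all tested genes 52.7% were above 0. The median of the ribosomal protein genes was -0.21 over both lines, -0.45 in vector tumours and 0.01 in miR-21 tumours. The median of the oxidative phosphorylation genes was -0.14 over both lines, -0.28 in vector tumours and -0.01 in miR-21 tumours. Without S-761 the medians of the ribosomal and respiratory genes were -0.03 and -0.05, and 19 of 20 members of each list were still below 0.

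**Figure D3:**
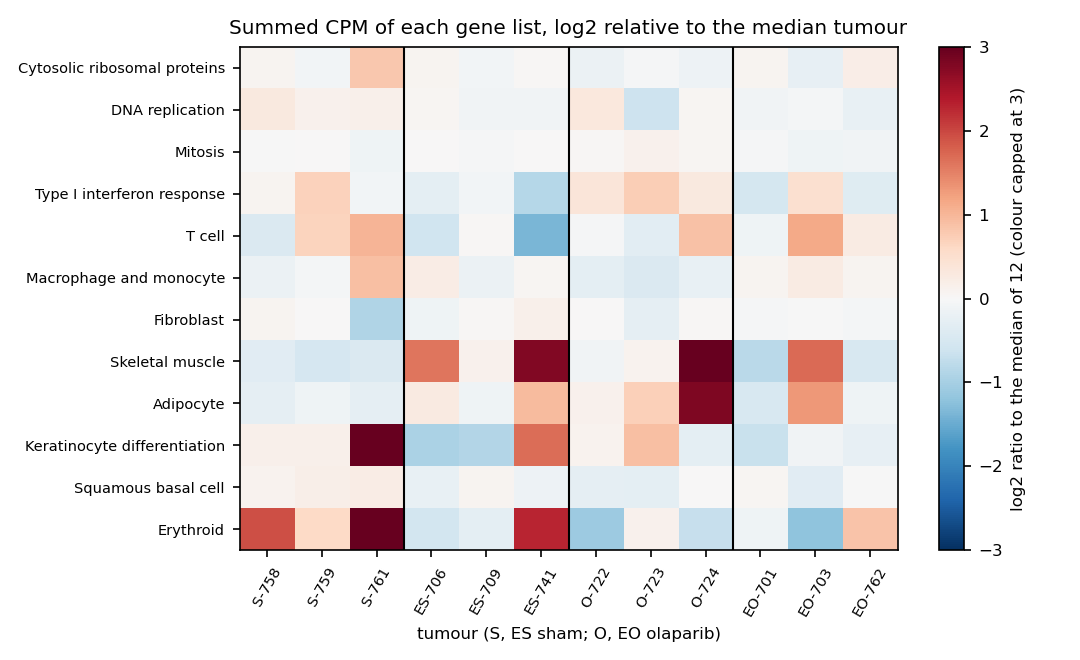
Summed CPM of 12 gene lists in each of the 12 tumours, as colour on a log2 scale relative to the median tumour and capped at 3, with vertical lines between the 4 groups. S-761 and ES-741 are high for keratinocyte differentiation genes, O-724 and ES-741 for skeletal muscle, O-724 for adipocyte genes, and O-723 is low for DNA replication.

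The split by treatment held a small share of the spread between tumours, and a split without any effect also holds some. Over the 2000 most variable genes, olaparib against sham took 6.89% of the sum of squares, cell line 14.5%, the 4 groups together 36.2%, and tumours within groups 63.8%. The mean distance between tumours of the same treatment, 46.0, was no smaller than that between tumours of different treatment, 45.1. On the first principal component O-724, EO-703 and ES-741, the tumours with the 3 highest skeletal muscle sums, lay at one end and S-761 at the other.

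**Figure D4:**
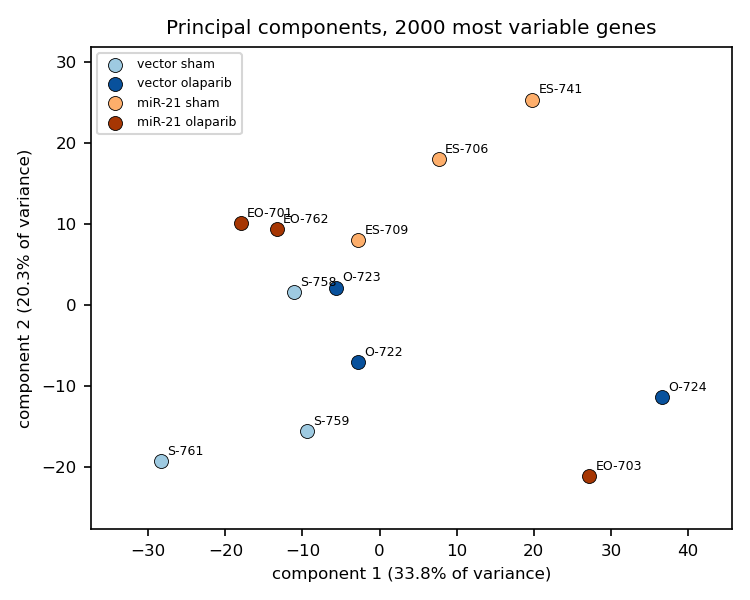
First and second principal components of log2(CPM + 0.5) over the 2000 most variable genes, holding 33.8% and 20.3% of the variance; each point is a tumour, coloured by group. Sham and olaparib tumours are mixed along both axes.

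Within single cell lines the direction of the difference was often opposite. For olaparib against sham in vector tumours, edgeR called 0 of 15336 genes (0%), with 2392 (15.6%) at an unadjusted p below 0.05 and a lowest adjusted p of 0.309. For olaparib against sham in miR-21 tumours, edgeR called 0 of 15336 (0%), with 676 (4.41%) at that p and a lowest adjusted p of 0.998. DESeq2 called 43 genes in vector and 16 in miR-21 tumours, and limma voom called 0 in either, with 1356 and 1943 at an unadjusted p below 0.05. The sign was the same in both lines for 6253 of 15336 genes (40.8%). Across these genes Pearson's r was -0.12 and Spearman's rho -0.22, a description over genes of the same 12 libraries, in which the 2 effects share no tumour. Of the 147 genes at an unadjusted p below 0.05 in both lines, which are 6.15% of the vector and 21.7% of the miR-21 genes at that p, 10 had the same sign. Without S-761 and O-723, 42.8% of 15594 genes had the same sign. With groups from the written label, which held partly other tumours, 37.7% of 15439 genes did. That grouping reuses coded tumours with the arms mostly exchanged, so it cannot show whether the opposite signs depend on the coding.

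Among the 16 genes that DESeq2 called in miR-21 tumours were Acta2, Egr1, Fos, Fosb and Ccl3, together with Krt5 and Krt1, which were listed at 0 in all miR-21 olaparib tumours. In miR-21 sham tumours ES-706, ES-709 and ES-741, Krt5 stood at 0.025, 0 and 9.70 CPM and Krt1 at 0, 0 and 9.52. The 43 genes that DESeq2 called in vector tumours, 34 higher and 9 lower, included Mmp3, Gpr179 and Zc3h7a. Mmp3 stood at 2.29, 1.94 and 1.55 CPM in vector sham and 8.22, 5.07 and 12.2 in vector olaparib tumours, and at 4.55, 4.70 and 7.34 and 3.97, 11.5 and 8.03 in the miR-21 groups. The arms did not overlap in vector tumours and overlapped in miR-21 tumours. Pdk4, a brake on glucose oxidation that was named after its values were seen, was called by DESeq2 in both lines in opposite directions. It stood at 0.130, 0.105 and 0.0298 CPM in vector sham, 0.600, 7.67 and 3.91 in vector olaparib, 2.89, 0.383 and 11.7 in miR-21 sham and 0.0768, 0.278 and 0.185 in miR-21 olaparib tumours. Ckm, muscle creatine kinase, was highest in O-724 and ES-741, at 217 and 164 CPM against 0.983 to 66.2 elsewhere. The part of muscle content in the differences between lines was not tested.

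The difference between the lines, the olaparib effect in miR-21 minus olaparib effect in vector tumours, was tested as an interaction. edgeR called 0 of 15336 genes (0%), with 2057 (13.4%) at an unadjusted p below 0.05, 829 higher (5.41%) and 1228 lower (8.01%) in the miR-21 line. DESeq2 called 163, of which 142 had the lower effect in miR-21 tumours, and voom 0, with 2491 at an unadjusted p below 0.05. The smallest adjusted p by edgeR, 0.162, was for Zfp930 (chromosome 8, 69209018 to 69230539), a zinc finger gene named after its values were seen. It stood at 14.5, 13.3 and 14.9 CPM in vector sham, 22.0, 24.2 and 19.8 in vector olaparib, 28.0, 29.8 and 35.6 in miR-21 sham and 20.3, 18.3 and 19.4 in miR-21 olaparib tumours. The sham groups were farthest apart and both olaparib groups lay between them. The effect was 0.63 ± 0.13 in vector and -0.69 ± 0.13 in miR-21 tumours, a difference of -1.32 ± 0.18.

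Zinc finger genes named Zfp with a number, a set picked after the values were seen, had a like layout. Of 329 tested, 96 were higher and 3 lower at an unadjusted p below 0.05 in vector tumours, where 8.44% and 7.15% of all tested genes were. In miR-21 tumours 3 were higher and 42 lower, where 1.93% and 2.48% of all genes were. Their median log2 fold change was 0.32 in vector and -0.15 in miR-21 tumours, beside 0.01 and 0.00 for all genes. The mean log2 CPM of the set was 3.06, 3.08 and 2.83 in vector sham, 3.26, 3.33 and 3.22 in vector olaparib, 3.32, 3.38 and 3.40 in miR-21 sham, and 3.18, 3.20 and 3.23 in miR-21 olaparib tumours. Vector sham lay below all other groups, and the olaparib groups overlapped each other. Without S-761 and O-723 the medians were 0.18 and -0.15. Many of these genes are similar in sequence, so the counts of single members are uncertain.

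**Figure D5:**
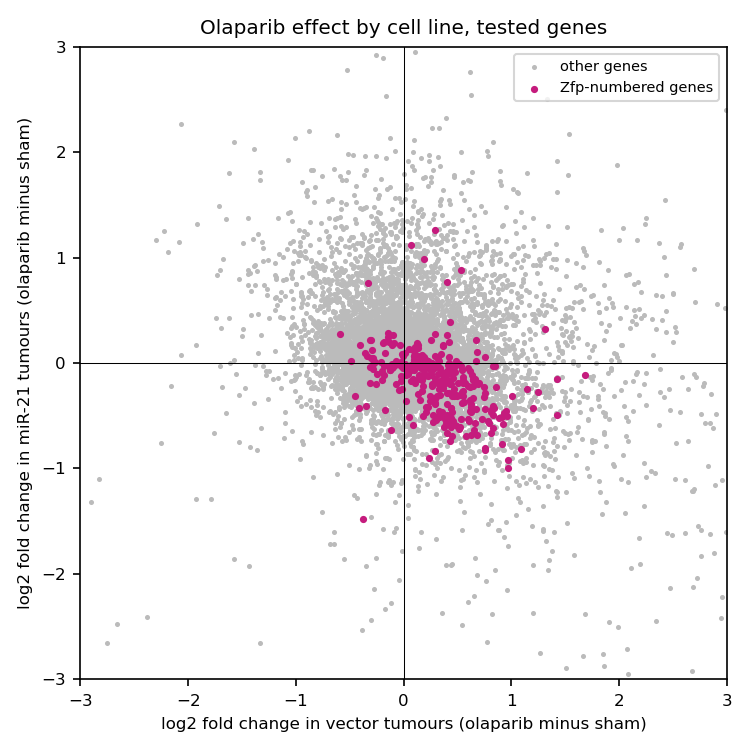
Log2 fold change of olaparib over sham in vector tumours (x axis) and in miR-21 tumours (y axis), 1 point per gene, with Zfp-numbered genes in colour; 122 genes lie outside the axes. The coloured points lie mostly at positive x and negative y, with medians of 0.32 and -0.15.

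Olaparib added to radiation was measured in the other 12 tumours, 3 per cell line with radiation alone and 3 with both, given as 8 Gy of X-rays on each of 3 days. Over both lines edgeR called 0 of 16560 genes (0%), with 1457 (8.80%) at an unadjusted p below 0.05, 1159 higher (7.00%) and 298 lower (1.80%), and a lowest adjusted p of 0.477. The olaparib effect without radiation minus olaparib effect with radiation had 0 calls (0%), 588 genes (3.55%) at that p, 185 higher (1.12%) and 403 lower (2.43%), and a lowest adjusted p of 0.987. DESeq2 called 7 genes for this difference, the keratinocyte genes Dsc3, Dsg1a and Krt15 among them, and voom called 0, with 694 at an unadjusted p below 0.05. Chac1 was at 0.77 ± 0.20 without and -0.56 ± 0.43 with radiation, Chchd6 at -0.43 ± 0.11 and 0.01 ± 0.12, and Zfp384 at 0.23 ± 0.07 and -0.02 ± 0.06. Nfkbiz was at 0.62 ± 0.16 without and 0.61 ± 0.39 with radiation, and Ccn1 at 1.03 ± 0.29 and 1.10 ± 0.50. Parp1 was at -0.14 ± 0.14 and -0.28 ± 0.17, and Polq at 0.00 ± 0.15 and -0.52 ± 0.39. Values without radiation are from the fit of the 12 unirradiated tumours, and those with radiation from the fit of all 24. Their SEs therefore do not compare the spread of the 2 settings. In the fit of all 24, Polq without radiation was at -0.012 ± 0.39. The difference between the settings did not pass the adjusted test for any of these genes.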

How the data were processed

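RNA from 24 whole tumours was sequenced, and the 12 unirradiated ones were compared here. The table deposited by the authors holds raw counts per gene and tumour, with no normalization. The submitters' processing notes name fastp, HISAT2, HTSeq and the build mm10, and the annotation and strand setting are not given in the sources used here, so overlapping or near-identical genes (globins, Hspa1a, keratins, Slfn8 and Slfn9, Ccl3 and Ccl4) are uncertain. Counts without molecular identifiers are not independent molecules, and no replicates were copies (lowest chi-square per gene 13.6). Totals of 37727884 to 39166017 counts per tumour gave even depth.

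Groups came from the coded identifiers. edgeR 4.0.16 (R 4.3.3; quasi-likelihood F-test, TMM scaling, filterByExpr, Benjamini-Hochberg adjusted p below 0.05) tested olaparib against sham with cell line as covariate. Fits with 4 groups tested each line and their difference, and a fit of all 24 tumours tested the difference from olaparib added to radiation. DESeq2 1.42.0, limma 3.58.1 (voom with quality weights), other filters and scaling, the written labels and leaving out tumours were alternatives. The procedure was tested on simulated data.

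Since 0 genes were called, the named genes are the 10 of each direction with the smallest p and a mean of at least 1 CPM, leaving out predicted genes, pseudogenes and receptor segments, up to 3 members of each list with the smallest p, and a fixed set of genes, of which 1 is not reported here. Genes named outside this rule were chosen after their values were seen: Zfp930, Pdk4, Ckm, Itga6, Itgb4, Trp63, Ddit3, Asns, Atf4, Fosb and the other mitochondrial contact site genes, as well as the genes cited as DESeq2 calls. The 46 gene lists had 941 entries, of which 870 were tested, and were described by counts and medians. The comparison, lists and named genes were chosen with earlier results of these data known.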

Additional observations from a re-analysis of the deposited data

Results flagged for a closer look

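In 298 sets of 6 tumours of 1 treatment, for gene list sums and named genes, 30 held a highest or lowest tumour that stood apart by Dixon's test at the 95% level. Chance gives about 1 in 20 sets, and the sets share tumours, so they are not independent. S-761 was that tumour in 20, O-723 in 8, and ES-741 and EO-703 in 1 each. Summed CPM set sham tumour S-761 apart from the other 5 sham tumours for ADP-ribose removal and NAD supply (775 against 591 to 616), ATM and ATR checkpoint (557 against 684 to 725), Mitosis (4169.6 against 4501 to 4656), NRF2 and oxidative stress (10748 against 5370.0 to 6238), Macrophage and monocyte (16422 against 7843 to 10312) and Fibroblast (3933 against 6744 to 8116). The same held for Cytosolic ribosomal proteins (34145 against 18361 to 20654). Summed CPM set olaparib tumour O-723 apart from the other 5 olaparib tumours for Alternative end joining (740.8 against 954 to 1094), Classical end joining (367 against 432 to 474) and Fibroblast (6080.5 against 7006 to 7473). Single genes that set S-761 apart, in CPM, were Lig3 (31.3 against 48.8 to 54.0), Brca1 (39.7 against 51.6 to 59.3), Trp53bp1 (44.1 against 65.6 to 72.2), Atm (35.7 against 63.1 to 76.9), Slfn9 (49.3 against 73.0 to 92.2) and Mdm2 (92.2 against 164 to 195). It was also apart for Ccnb1 (77.8 against 103 to 113), Vmp1 (333 against 209.7 to 241), Gins2 (44.4 against 25.1 to 31.0), Tnf (0.626 against 1.87 to 2.62), Chchd3 (134 against 76.6 to 88.1) and Apool (37.1 against 21.6 to 24.2). Further genes were Micos13 (98.0 against 49.0 to 62.8). O-723 was apart from the other olaparib tumours for Parp1 (70.7 against 119 to 141), Atr (42.5 against 54.5 to 60.3), Wee1 (95.2 against 28.4 to 37.4), Mdm2 (328 against 169 to 197) and Rsad2 (265 against 23.6 to 47.0). ES-741 was apart from the other sham tumours for Abcg2 (14.1 against 7.79 to 9.11). EO-703 was apart from the other olaparib tumours for Itga6 (99.0 against 139.9 to 169).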

How the results depend on the processing

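edgeR called 0 genes in each of the 5 comparisons with every other filter, scaling, sample set and grouping tried, and limma voom called 0 as well. DESeq2's Wald test called 43 genes in vector tumours, 16 in miR-21 tumours, 163 for the difference between lines and 7 for the difference between radiation settings, and 0 over both lines; the cause of the gap to edgeR was not tested. Leaving out each tumour in turn gave 0 to 0 calls in each comparison, while genes at an unadjusted p below 0.05 ran from 296 to 888 over both lines, from 1279 (without S-761) to 3389 in vector tumours and from 253 (without ES-741) to 1138 in miR-21 tumours. Settings that left out S-761 with O-723, or S-761 with O-724 and ES-741, were chosen after seeing the data. No paired analysis was possible because the numbers in the identifiers name single tumours and no 2 groups share one. Depth was even between tumours, and what limited the precision was not tested. Of the 103 named genes, 0 passed the adjusted threshold under any setting, and the following took the opposite sign; the cause was not tested. With groups from the written label, log2 fold changes were Parp1 0.15, Parp3 -0.16, Parg -0.057, Hpf1 0.20, Xrcc1 0.044, Lig3 -0.089, Polq -0.014, Brca2 0.0096, Trp53bp1 -0.0050 and Atm -0.16. The written label also gave Atr 0.17, Chek1 0.064, Wee1 -0.67, Slfn8 -0.53, Slfn9 -0.25, Cdkn1a -0.052, Mdm2 -0.41, Ccng1 0.15, Bax 0.13 and Abcb1a -0.12. Under those labels there were Abcg2 0.12, Isg15 -0.61, Ifit1 -1.06, Cxcl10 -0.53, Cd274 -0.40, Ccnb1 -0.16, Krt14 0.57, Pdcd4 -0.11, Mir100hg -0.12 and Gpr137b -0.072. Next came Tafa3 -0.49, Zc3h7a -0.079, Zfp384 -0.15, Chac1 -0.69, Mmp3 -0.59, Ccn1 -0.46, Chchd6 0.12, Apoo 0.23, Lgals7 0.91 and Dmkn 0.23. Those groups further gave Dsp 0.21, Snai1 0.22, Hbb-bt 1.62, Krt1 0.46, Krt10 1.19, Parp9 -0.31, Parp4 -0.20, Macrod2 0.29, Gins2 0.29 and Tyms 0.25. Other values by that label were Tipin 0.24, Pmaip1 -0.063, Fdxr 0.030, Gdf15 -0.84, Rsad2 -1.08, Ccl3 -0.16, Ccl4 -0.26, Tnf -0.29, Cd28 -0.26 and Icos -0.55. Others there were Egr1 -0.59, Fos -0.50, Trib3 -0.53, Abcc5 -0.010, Nqo1 0.16, Postn -0.36, Nos2 -1.18, Plin1 -1.88, Slc7a11 -0.68 and Pdk4 -0.077. Still under those labels were Zfp930 0.16, Alas2 1.66, Itga6 0.058, Itgb4 0.19, Trp63 0.060, Ddit3 -0.19, Asns -0.011, Fosb -0.24, Chchd3 0.23 and Apool 0.22. The last were Micos10 0.17 and Micos13 0.21. With limma voom they were Parp2 0.024, Hpf1 0.054, Polq -0.12, Wee1 -0.20, Slfn8 -0.033, Slfn9 -0.16, Cdkn1a -0.075, Abcg2 0.0017, Isg15 -0.16, Ccnb1 -0.052, Ckm -1.69 and Pdk4 -1.23. With all 24 tumours in the fit there was Polq -0.012. Without the cell line covariate they were Polq -0.0059 and Pdk4 -0.28. With no low-count filter there was Polq -0.00051. Without S-761 and O-723 they were Parp2 0.062, Hpf1 0.091, Polq -0.011, Shld1 0.017, Wee1 -0.30, Slfn9 -0.026, Cdkn1a -0.13, Isg15 -0.024, Ccnb1 -0.078 and Pdk4 -2.05. Without S-761, O-724 and ES-741 they were Parp3 -0.14, Lig3 -0.012, Polq -0.069, Trp53bp1 -0.11, Atm -0.031, Slfn9 -0.034, Cdkn1a -0.017, Abcg2 0.14, Isg15 -0.0081, Krt10 0.11, Ckm -0.10 and Pdk4 -0.23. Leaving out each tumour in turn gave ranges for Abcg2 from -0.097 to 0.13, Asns from -0.069 to 0.20, Atr from -0.11 to 0.014, Brca1 from -0.087 to 0.043, Brca2 from -0.12 to 0.010, Ccnb1 from -0.0077 to 0.14, Cdkn1a from -0.082 to 0.12 and Ckm from -0.63 to 2.47. Further such ranges were Hpf1 from -0.13 to 0.022, Itga6 from -0.12 to 0.012, Lig3 from -0.019 to 0.13, Parp2 from -0.10 to 0.051, Parp3 from -0.058 to 0.14, Pdk4 from -1.97 to 2.20, Polq from -0.061 to 0.11 and Shld1 from -0.090 to 0.021. The rest of these were Slfn9 from -0.031 to 0.18, Trp53bp1 from -0.027 to 0.12, Vmp1 from -0.0088 to 0.15, Wee1 from -0.20 to 0.19 and Zfp930 from -0.14 to 0.077.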

Other observations

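Since Chchd6 and Apoo are both subunits of the mitochondrial contact site complex, the other subunits were looked up after those values were seen. Immt, the core subunit, was at -0.06 ± 0.07 (log2 fold change ± SE), Chchd3 at -0.19 ± 0.13, Apool at -0.26 ± 0.15, Micos10 at -0.20 ± 0.14 and Micos13 at -0.23 ± 0.15, with 0 at an unadjusted p below 0.05 by edgeR. Chchd3, Apool, Micos10 and Micos13 were highest in S-761, as were Chchd6 and Apoo, at 134 CPM for Chchd3 against 73.9 to 88.1 in the other 11 tumours.

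Further gene groups gave few members at an unadjusted p below 0.05. Of 24 cholesterol synthesis genes 1 was higher, with a median log2 fold change of -0.18 in vector and 0.35 in miR-21 tumours. Of 26 hypoxia and glycolysis genes 0 were at that p, with medians of -0.23 and 0.19. Dendritic cell genes were above 0 for 14 of 15 tested members, with a median of 0.36 and 0 at that p, beside 52.7% of all tested genes above 0. Without EO-703 that median was 0.03 with 10 of 16 above 0, and without O-724 it was 0.15. Mast cell genes summed to 7.24 CPM in S-761 and to 34.1 to 169 in the other 11 tumours. B and plasma cell genes were highest in O-724 and EO-703, at 244 and 238 CPM against 92.1 to 163 elsewhere. The senescence-associated secretion list had 2 of 22 members higher at that p, Mmp3 and Gdf15, where 1.88% of all tested genes were.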
